A study of Drosophila melanogaster with 12 samples.

Results

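The report concerns 216 long non-coding RNA (lncRNA) genes among the 17807 genes counted in brains of Drosophila melanogaster larvae. They were selected on their own counts: a gene whose Ensembl symbol starts with lncRNA: became a member when it had at least 20 raw counts in at least 2 of the 6 libraries made after immunoprecipitation with an antibody to N6-methyladenosine (m6A), here called meRIP libraries. cherub, roX1 and roX2 were left out by name. Of the other 1908 lncRNA genes in the table, 1692 did not reach the limit and 730 had no count in any of the 12 libraries. Symbols are written without the lncRNA: prefix.

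Brain lobes of L3 larvae, the last larval stage, came from 3 genotypes, and the RNA of each was sequenced both as meRIP and as input (rRNA-depleted total RNA), with 2 libraries of each kind. Mettl3 null larvae lack the methyltransferase that makes m6A, so that reads in their meRIP libraries measure what the antibody preparation recovers without it. Neuroblast-biased brains (insc_aPKC_CAAX) carried insc-Gal4 driving membrane-tethered aPKC, a genotype in which neuroblasts, the neural stem cells, divide symmetrically and accumulate at the expense of neurons. Wildtype brains (Oregon_R, named neuron-biased in the labels) hold mostly neurons. In such bulk samples fewer cells of a type and less RNA per cell cannot be told apart.

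An lncRNA is a transcript without a long open reading frame. Some act as RNA, as Hsromega does in the nuclear omega speckles that store RNA-binding proteins after heat shock. Others are the long primary transcripts from which a microRNA (miRNA) hairpin is cut: a mature miRNA then pairs with messenger RNAs through its seed, bases 2 to 8, and represses them. m6A is laid down on RNA by Mettl3 and its partners, in flies preferentially at sites whose core is AAAC. Of the 216 genes, 21 contained 27 annotated miRNA genes, all of them within exons of the lncRNA. Of all members 110 lay outside protein-coding genes, 55 within an intron of a protein-coding gene on the same strand, 16 within an intron on the opposite strand, and 35 shared exon bases with a protein-coding gene. The exon sequence of the 216 had a median length of 883.5 bases, against 1405 bases over all annotated genes, and a median of 7.36 AAAC per kb, against 5.38 over all genes. Their GC content was also lower, with a median of 43.4% against 48.2%. The lncRNA genes below the count limit lay on the same side of all genes in each of these 3 measures, with medians of 601 bases, 6.74 AAAC per kb and 45.0% GC.

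Mature products of 7 miRNA hosts described in the results are printed 5′ to 3′ as DNA from the RefSeq genome annotation (release 6 plus ISO1 MT), in lower case with the seed in capitals, so that hosts whose products share a seed can be compared. The mir-279 and mir-996 products of a single host share the seed GACTAGA, and mir-276a and mir-276b, from neighbouring hosts, share AGGAACT. let-7, the timing miRNA at the end of larval life, is made with mir-100 and mir-125 from the host let7C.
mir-279 3′ product, 3R:29215651-29215672, in CR31044: tGACTAGAtccacactcattaa
mir-996 3′ product, 3R:29217244-29217265, in CR31044: tGACTAGAtttcatgctcgtct
mir-275 3′ product, 2L:7425853-7425875, in CR43857: tCAGGTACctgaagtagcgcgcg
mir-124 3′ product, 2L:17566426-17566448, in CR45919: tAAGGCACgcggtgaatgccaag
mir-276a 3′ product, 3L:10365281-10365302, in CR46006: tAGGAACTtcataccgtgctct
mir-276b 3′ product, 3L:10319846-10319867, in CR46004: tAGGAACTtaataccgtgctct
bantam 3′ product, 3L:642259-642281, in CR43334: tGAGATCAttttgaaagctgatt
let-7 5′ product, 2L:18472044-18472064, in let7C: tGAGGTAGtaggttgtatagt
mir-100 5′ product, 2L:18471445-18471466, in let7C: aACCCGTAaatccgaacttgtg
mir-125 5′ product, 2L:18472343-18472364, in let7C: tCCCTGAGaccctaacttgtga

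Total counts ran between 7870449 and 31352131 in meRIP libraries and between 4220420 and 10828815 in input libraries, and members took 1.57% to 2.68% of meRIP counts and 1.37% to 1.83% of input counts. The study's methods name featureCounts for meRIP and kallisto for input, so that a meRIP to input ratio sets the counts of 2 programs against each other; the part of this in the ratios was not tested. Members were thin in input: between 34 and 123 of the 216 had no count in an input library, against 2 to 11 in a meRIP library. Neuroblast-biased input replicate 1 stood apart, with 123 at 0, and 51 members were at 0 in 1 neuroblast-biased input library while the other held 20 counts or more (35 in Mettl3 null, 13 in wildtype). Mettl3 itself was at 3.94 and 4.28 CPM (counts scaled to the size of each library) in Mettl3 null meRIP libraries, against 18.7 and 16.0 CPM in neuroblast-biased and 14.2 and 16.4 CPM in wildtype ones. In input, Mettl3 was at 9.05 and 2.25 CPM in Mettl3 null, 13.4 and 28.5 CPM in neuroblast-biased and 22.8 and 22.6 CPM in wildtype libraries, lowest in both Mettl3 null ones though nearer to the others in replicate 1. aPKC was at 180.5 and 175 CPM in Mettl3 null, 424 and 343 CPM in neuroblast-biased and 116 and 130 CPM in wildtype input, with Mettl3 null above wildtype. In neuroblast-biased against wildtype input, 7 of 8 neuroblast markers were higher and pros was lower. The sum over all 8, pros included, was lower, at 5880 to 6785 CPM in neuroblast-biased and 11676 to 12185 CPM in wildtype input. There 8 of 8 neuronal markers (sum 1038 to 1117 CPM, against 3304 to 3461 CPM in wildtype) and 4 of 6 glial markers were lower, as were 7 of 7 salivary gland markers. The 7 were at 0 in neuroblast-biased input, summed to 10.2 to 17.1 CPM in Mettl3 null and to 211 to 214 CPM in wildtype input. Their part in the differences of the lncRNAs was not tested.

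Per kb of exon, CR34335, noe and CR33938 had the most reads of the 216, in both kinds of library. noe, a non-coding RNA of the nervous system, averaged 10341 CPM per kb in meRIP and 2808 CPM per kb in input, and CR34335, which lies in an intron of DIP-alpha, 4456 CPM per kb in meRIP and 4826 CPM per kb in input. The meRIP level of noe was 8743 and 7545 in Mettl3 null, 6761 and 11332 in neuroblast-biased and 12526 and 19917 CPM in wildtype brains. Its input level was 2585 and 2747 in Mettl3 null, 2265 and 2746 in neuroblast-biased and 3884 and 3915 CPM in wildtype brains. The noe level was higher in every meRIP library than in any input library. Near-identical copies elsewhere in the genome (at least 95% identity over 50 bases) covered 65.4% of the exon of CR34335, 54.6% of that of CR45573 and the whole exon of CR40469 and CR45736, so that reads of these 4 genes could have been split or lost in counting.

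The first question, whether lncRNAs carry reads that depend on Mettl3, was first asked of the meRIP libraries alone. In Mettl3 null against wildtype meRIP, 57 of the 216 were lower and 8 higher, a call rate to be read against 16.6% lower and 6.11% higher among all 9493 genes tested (22.7% in either direction). The median log2FC of the 216 was -0.61, against 0.05 over all genes. Because the members were chosen by meRIP counts, the 126 that reached 20 counts in a library of each genotype were also counted: 44 were lower and 2 higher. Without Mettl3 null meRIP replicate 1, 39 members were called (32 lower), and 1529 of 10090 genes. Scaling by library size alone moved the median of all genes by 0.58 and gave 48 lower and 19 higher. Over all genes it turned the balance: 23.2% of the called genes were then lower, against 73.1% with TMM scaling.

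Of the 21 hosts, 15 were lower in Mettl3 null than in wildtype meRIP and 1, CR43459, was higher, with a median log2FC of -1.88. Of the 195 other members 42 were lower and 7 higher, with a median of -0.45. The hosts had longer exon sequence, with a median of 4902 bases against 883.5 over the 216. Of the 21 hosts 20 reached 20 counts in a meRIP library of each genotype, against 126 of the 216. Against neuroblast-biased meRIP, 12 hosts were lower and 3 higher in Mettl3 null (median -1.43), and of the 195 others 44 were lower and 39 higher (median 0.09). These 2 genotypes also differ in cell content: neuronal markers summed to 3781 to 4157 CPM in Mettl3 null and 1038 to 1117 CPM in neuroblast-biased input. Loss of Mettl3 and the balance of neuroblasts and neurons cannot be told apart in this contrast. The difference between hosts and other members was not tested. In that comparison 20.6% of all genes were lower and 18.2% higher (38.8% in either direction), and of the 216 members 56 were lower and 42 higher. Of the 126 that reached 20 counts in a library of each genotype, 41 were lower and 25 higher. The 32 that reached it in 1 genotype only gave 10 lower and 5 higher, calls that the count rule favours. Scaled by library size alone, which moved the median of all genes by 0.54, 40 of the 216 were lower and 66 higher, and 11 hosts were lower and 5 higher. Of all called genes 20.2% were then lower, against 53.1% with TMM scaling. Without Mettl3 null meRIP replicate 1, 30 members were lower and 29 higher.

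CR31044 (3R:29214562-29219667, plus strand), the single-exon primary transcript of mir-279 and mir-996, which help specify which sensory neurons detect carbon dioxide, was at 31.5 and 26.4 in Mettl3 null, 416 and 739 in neuroblast-biased and 207 and 253 CPM in wildtype brains in meRIP. The Mettl3 null libraries were the lowest and the neuroblast-biased ones the highest, without overlap. The log2FC was -3.04 against wildtype (SE 0.25, adjusted p = 1.17e-09) and -4.32 against neuroblast-biased (adjusted p = 1.49e-12). CR45919 (2L:17560813-17566551, plus strand), host of the neural miRNA mir-124, was at 58.9 and 68.3 in Mettl3 null, 205 and 327 in neuroblast-biased and 236 and 284 CPM in wildtype brains. The log2FC was -2.11 against wildtype (SE 0.23, adjusted p = 7.32e-08). Both other genotypes lay above Mettl3 null and overlapped each other. CR43857 (2L:7423820-7425932, plus strand), host of mir-275, was at 114 and 90.9 in Mettl3 null, 286 and 409.8 in neuroblast-biased and 723 and 568 CPM in wildtype brains. The log2FC was -2.70 against wildtype (SE 0.23, adjusted p = 1.22e-09). Its levels were ordered Mettl3 null, neuroblast-biased, wildtype, from low to high, with no overlap.

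The let-7 complex host let7C (2L:18455717-18473132, plus strand), whose miRNAs time the end of larval life, was at 3.12 and 2.64 in Mettl3 null, 6.19 and 12.1 in neuroblast-biased and 34.8 and 45.0 CPM in wildtype brains in meRIP. It was the host with the most negative log2FC against wildtype. The log2FC was -3.79 (SE 0.47, adjusted p = 3.75e-07). Against neuroblast-biased meRIP its call (log2FC -1.60, adjusted p = 0.0101) was lost without Mettl3 null meRIP replicate 1 (adjusted p = 0.147) or neuroblast-biased meRIP replicate 2 (adjusted p = 0.0564) and with scaling by library size alone (adjusted p = 0.0815). CR43314, host of mir-bft (bereft, which acts in sensory bristles), was at 1.35 and 1.64 in Mettl3 null, 7.08 and 11.3 in neuroblast-biased and 15.4 and 20.3 CPM in wildtype brains. The log2FC was -3.64 against wildtype (SE 0.59, adjusted p = 2.25e-05). Hosts of mir-8 and mir-14, miRNAs of growth and cell survival, were highest in neuroblast-biased brains. CR43650, the mir-8 host, was at 8.82 and 7.17 in Mettl3 null, 112 and 148 in neuroblast-biased and 32.7 and 35.4 CPM in wildtype brains. The log2FC was -4.05 against neuroblast-biased (SE 0.30, adjusted p = 5.62e-11). CR43651, the mir-14 host, was at 5.23 and 5.28 in Mettl3 null, 56.1 and 87.2 in neuroblast-biased and 24.7 and 39.7 CPM in wildtype brains. The log2FC was -3.81 against neuroblast-biased (SE 0.38, adjusted p = 8.26e-09). Only CR43459, host of mir-277 and the ageing-brain miRNA mir-34, was higher in Mettl3 null than in wildtype meRIP among the hosts. It was at 51.9 and 54.1 in Mettl3 null, 49.5 and 63.3 in neuroblast-biased and 26.4 and 35.3 CPM in wildtype brains. The log2FC was 0.74 against wildtype (SE 0.24, adjusted p = 0.0257). It lost this call without wildtype meRIP replicate 1 (adjusted p = 0.177). The call of CR45910, host of mir-1000, against wildtype (log2FC -1.04, adjusted p = 0.00397) was lost without Mettl3 null meRIP replicate 1 (adjusted p = 0.189) and with library size alone (adjusted p = 0.237). Of the 3 hosts higher in Mettl3 null than in neuroblast-biased meRIP, CR45347 lost its call without neuroblast-biased meRIP replicate 1 (adjusted p = 0.0648). CR46004 lost it with edgeR (adjusted p = 0.0655) and without Mettl3 null meRIP replicate 2 (adjusted p = 0.109), neuroblast-biased meRIP replicate 1 (adjusted p = 0.374) or wildtype meRIP replicate 2 (adjusted p = 0.0737).

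**Figure D1:**
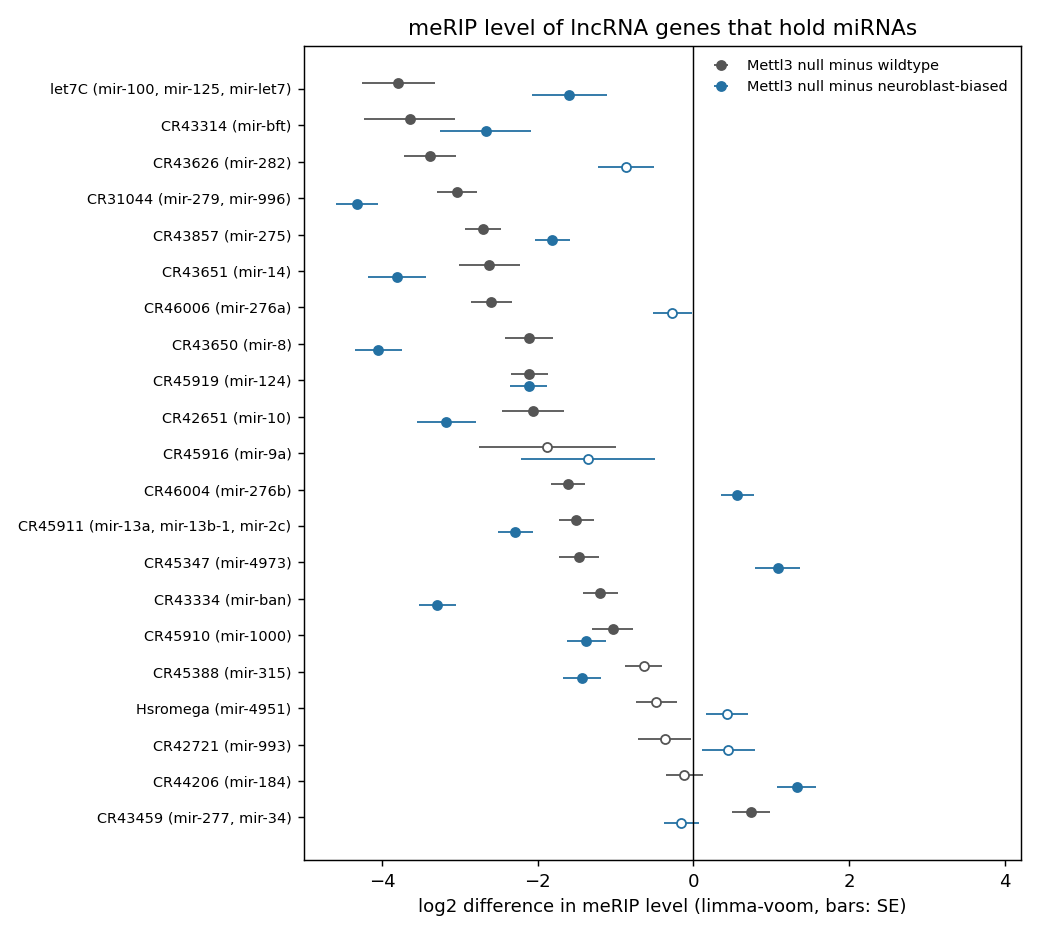
log2 difference in meRIP level of the 21 lncRNA genes that hold miRNAs, Mettl3 null minus neuroblast-biased (blue) and Mettl3 null minus wildtype (grey), limma-voom estimates with SE bars, n = 2 libraries a group; filled points have an adjusted p below 0.05. The grey points of 20 of 21 hosts lie left of 0 (17 of 21 when scaled by library size alone), while the blue points of CR46004, CR45347 and CR44206 are filled and right of 0.

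A lower meRIP level can also reflect less RNA in the input, so the meRIP to input ratio was compared in 1 fit over the 12 libraries. In Mettl3 null against wildtype, 11 of 213 members tested had a lower ratio and 1 a higher one, beside 5.22% lower and 0.413% higher of 9918 genes (5.64% in either direction). Against neuroblast-biased brains 11 were lower and 1 higher, beside 4.46% and 0.242% (4.7% in either direction). Of these 11 lower members, 10 were among the 126 that reached 20 counts in a meRIP library of each genotype. The other, sphinx, reached 20 counts only in neuroblast-biased meRIP, so it entered through the genotype where it was high. Its neuroblast-biased input was at 0. By limma-voom the share of members called, 5.63% in each comparison, was near that of all genes. DESeq2 called 20 members lower and 3 higher against wildtype (10.8% of members tested and 9.1% of genes) and 25 lower and 7 higher against neuroblast-biased brains (15.4% and 9.13%). Without a filter 7 were lower and 2 higher against wildtype (4.17% of members and 3.88% of genes). In the second comparison 14 were then lower and 5 higher (8.8% and 3.8%). The study split the RNA of each genotype between input and meRIP, and the fit treats the 12 libraries as independent. With genotype and replicate number as a block, 13 members were lower and none higher against wildtype (6.1% of members and 6.69% of genes). Against neuroblast-biased brains 17 were lower and 2 higher with the block (8.92% of members and 6.53% of genes). Scaling by library size alone, which moved the median ratio difference of all genes by 0.51 and 0.45, left 9 lower and 1 higher against wildtype and 7 lower and 1 higher against neuroblast-biased brains. Of all called genes 53.4% were then lower against wildtype and 73.1% against neuroblast-biased brains. With TMM scaling these shares were 92.7% and 94.85%. The ratio calls rested on few libraries: without wildtype input replicate 2, no member and 1 of 10772 genes was called against wildtype, and without Mettl3 null meRIP replicate 1, 1 member (CR43857) and 65 of 10930 genes were called against neuroblast-biased brains. In both comparisons the number of members called, and that of all genes called, also moved with each of the other libraries left out. Each such fit leaves 1 library in a group. Both comparisons share the Mettl3 null libraries.

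Of the 15 members lower in either ratio comparison, sphinx among them, 6 were miRNA hosts, 12 lay outside protein-coding genes and 7 had a single exon. Of all 216 members, 21 were miRNA hosts, 110 lay outside protein-coding genes and 136 had a single exon. The 7 that were lower in both were CR45758, CR46348, CR31044, CR43857, CR33963, CR45919 and CR46006, of which 4 are miRNA hosts. CR31044, the mir-279 and mir-996 host, had input levels of 22.1 and 31.7 in Mettl3 null, 47.8 and 71.4 in neuroblast-biased and 29.8 and 29.6 CPM in wildtype brains. Its mean meRIP to input ratio was 1.08 in Mettl3 null, 9.69 in neuroblast-biased and 7.75 in wildtype brains. Against neuroblast-biased brains the ratio differed at log2FC -3.04, SE 0.55, adjusted p = 0.00599, and against wildtype at log2FC -2.78, SE 0.62, adjusted p = 0.0136. The first call was lost without Mettl3 null meRIP replicate 1 (adjusted p = 0.0917). The second was lost without either Mettl3 null meRIP library, Mettl3 null input replicate 2, either wildtype input library or wildtype meRIP replicate 2, with adjusted p up to 0.186.

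CR43857, the mir-275 host, had input levels of 91.3 and 85.4 in Mettl3 null, 64.8 and 31.6 in neuroblast-biased and 85.4 and 90.9 CPM in wildtype brains. Its ratios were 1.16 in Mettl3 null, 7.22 in neuroblast-biased and 7.33 in wildtype brains. Its ratio calls were lost least often of the 7. The log2FC was -2.74 against neuroblast-biased brains (SE 0.42, adjusted p = 0.00277) and -2.62 against wildtype (SE 0.39, adjusted p = 0.00173). The first was made whichever library was left out (highest adjusted p = 0.0357), and the second was lost only without wildtype input replicate 2 (adjusted p = 0.0677). For CR45919, the mir-124 host, input was 93.9 and 78.5 in Mettl3 null, 68.7 and 91.2 in neuroblast-biased and 76.2 and 79.0 CPM in wildtype brains, with overlap among all 3. The ratios were 0.738 in Mettl3 null, 3.33 in neuroblast-biased and 3.35 in wildtype brains. The log2FC was -2.14 against neuroblast-biased (adjusted p = 0.00559) and -2.19 against wildtype (adjusted p = 0.00414). Its calls were lost without Mettl3 null meRIP replicate 1 (adjusted p = 0.0865 and 0.0693) and, against wildtype, without wildtype input replicate 2 (adjusted p = 0.086). The meRIP level of the mir-124 host did not separate neuroblast-biased from wildtype brains. The log2FC was 0.01 (adjusted p = 0.976).

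CR46006 (3L:10323501-10367450, plus strand), whose mir-276a acts in olfactory memory, had the largest counts of the 7: meRIP was 530.2 and 604 in Mettl3 null, 477 and 894 in neuroblast-biased and 3269.6 and 3319 CPM in wildtype brains. Input was 720.2 and 575 in Mettl3 null, 237 and 188 in neuroblast-biased and 842 and 818 CPM in wildtype brains. Input and meRIP both lay lower in neuroblast-biased brains than in wildtype ones. The ratios were 3.23 in neuroblast-biased and 3.97 in wildtype brains, and the ratio in Mettl3 null was 0.876. The log2FC was -1.82 against neuroblast-biased (adjusted p = 0.00834) and -2.18 against wildtype (adjusted p = 0.00173). The first call was lost without Mettl3 null meRIP replicate 1 (adjusted p = 0.086) and the second without wildtype input replicate 2 (adjusted p = 0.0603). CR46004, the mir-276b host 2900 bases upstream, had ratios of 1.22 in Mettl3 null, 1.89 in neuroblast-biased and 2.07 in wildtype brains and was not called. The log2FC was -0.73 against wildtype (adjusted p = 0.319). The difference between the 2 hosts, whose products share a seed, was not tested.

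CR45758 (3L:22960930-22961668, plus strand), a single-exon transcript, had the most negative log2FC between Mettl3 null and wildtype meRIP of the members reaching 20 counts in every genotype: 4.12 and 10.1 in Mettl3 null, 23.8 and 41.8 in neuroblast-biased and 237 and 263 CPM in wildtype brains. Its input was at 15.2 and 28.2 in Mettl3 null, 0 and 4.89 in neuroblast-biased and 9.02 and 14.3 CPM in wildtype brains, with Mettl3 null above wildtype but not called. The log2FC was 0.67 (adjusted p = 0.915). The ratio was 0.327 in Mettl3 null, 13.4 in neuroblast-biased and 21.4 in wildtype brains. The log2FC was -6.24 against wildtype (SE 0.98, adjusted p = 0.0023). The fitted value against neuroblast-biased brains (log2FC -7.52, adjusted p = 0.024) rests on 1 input library at 0. The call against wildtype was lost without Mettl3 null meRIP replicate 1 (adjusted p = 0.0654) or wildtype input replicate 2 (adjusted p = 0.0916), and the one against neuroblast-biased brains without either Mettl3 null meRIP library (adjusted p = 0.145 and 0.0504) or wildtype input replicate 1 (adjusted p = 0.0534).

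CR46348 (3L:22570364-22572033, minus strand) was at 19.4 and 14.7 in Mettl3 null, 9.56 and 13.2 in neuroblast-biased and 248 and 262 CPM in wildtype brains in meRIP. In input it was at 18.2 and 23.1 in Mettl3 null, 0 and 0.922 in neuroblast-biased and 14.4 and 12.5 CPM in wildtype brains. Its meRIP level was low in Mettl3 null and in neuroblast-biased brains alike, but for neuroblast-biased brains input was near 0 as well. The ratio was 0.827 in Mettl3 null, 24.7 in neuroblast-biased and 19.0 in wildtype brains. The log2FC was -4.49 against wildtype (SE 0.56, adjusted p = 0.00122). This call was lost without wildtype input replicate 2 (adjusted p = 0.0701). Against neuroblast-biased brains (log2FC -5.56, adjusted p = 0.0315) the call was lost without Mettl3 null meRIP replicate 1 (adjusted p = 0.0881) or neuroblast-biased input replicate 1, the library at 0 (adjusted p = 0.127), and with library size alone (adjusted p = 0.0587). CR33963 (X:12659462-12660632, plus strand) shares exon bases with Tis11, an RNA-binding protein gene that promotes mRNA decay. It was at 17.7 and 22.3 in Mettl3 null, 119.9 and 162 in neuroblast-biased and 102 and 98.0 CPM in wildtype brains in meRIP. Its input was at 11.6 and 9.47 in Mettl3 null, 20.5 and 11.4 in neuroblast-biased and 21.1 and 7.3 CPM in wildtype brains. The log2FC was -2.49 against wildtype (adjusted p = 0.044) and -2.40 against neuroblast-biased (adjusted p = 0.0394). Reads of CR33963 and Tis11 cannot be told apart where their exons overlap without strand. Its calls were lost without most single libraries: 8 of 12 against wildtype (any of the Mettl3 null or wildtype libraries, adjusted p up to 0.551) and 11 of 12 against neuroblast-biased brains (all but neuroblast-biased meRIP replicate 1, adjusted p up to 0.247).

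**Figure D2:**
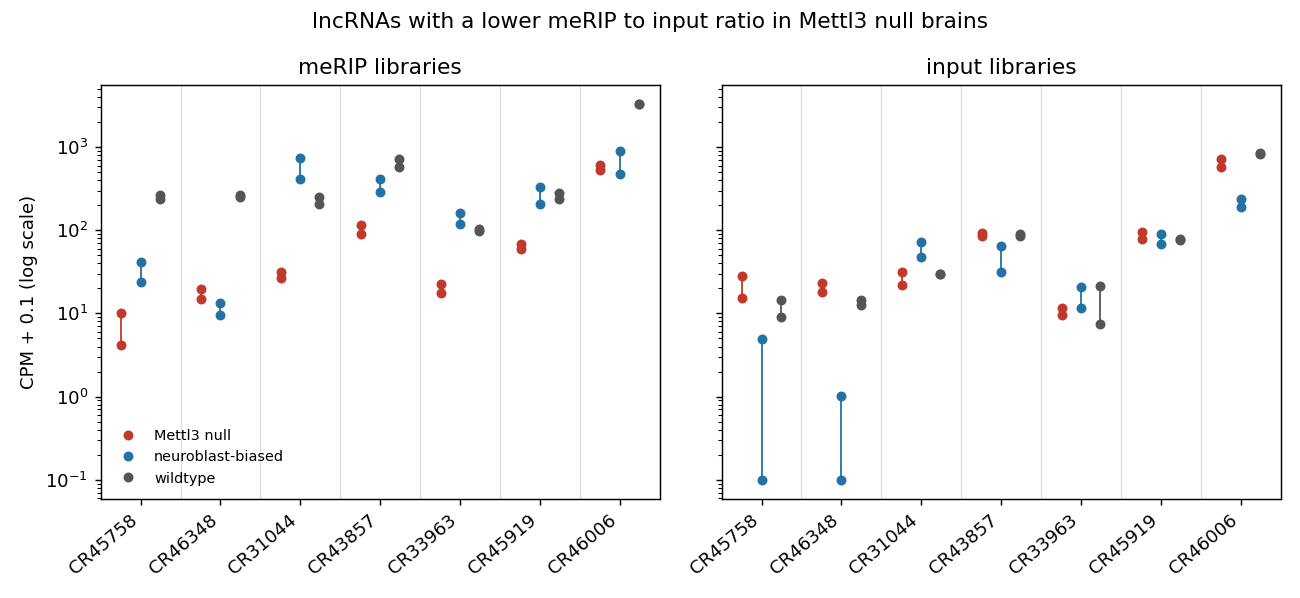
CPM + 0.1 (log axis) of the 7 lncRNA genes with a lower meRIP to input ratio in Mettl3 null brains than in both other genotypes, in meRIP (left) and input libraries (right); each point is a library (Mettl3 null red, neuroblast-biased blue, wildtype grey) and lines join the 2 libraries of a genotype. The Mettl3 null meRIP points lie below both wildtype points for all 7, whereas the Mettl3 null input points lie among or above those of wildtype for all but CR46006; CR45758 and CR46348 each have a neuroblast-biased input library at 0.

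Since input was thin for most members, ratios were also described for the 45 with 20 counts or more in each of the 12 libraries, without a test. Their median ratio was 1.07 in Mettl3 null, 1.42 in neuroblast-biased and 1.95 in wildtype brains, and Mettl3 null was the lowest genotype for 24 and the highest for 11. Among these, the 14 miRNA hosts had medians of 0.95 in Mettl3 null, 2.79 in neuroblast-biased and 2.87 in wildtype brains, with Mettl3 null lowest for 12 of 14 and highest for 1. The 31 others had medians of 1.10 in Mettl3 null, 1.18 in neuroblast-biased and 1.88 in wildtype brains, with Mettl3 null lowest for 12 and highest for 10. The order of the genotypes was not counted over all genes, so these counts lack a background and describe the members only. Of the 45, 7 were called lower against wildtype and 6 against neuroblast-biased brains.

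The exon starts of 4 of the 7 members lower in both comparisons are printed, 5′ to 3′ in transcript direction with AAAC in capitals, because CR45758 held the most AAAC among them and the others show the range. They were read from the BDGP6 genome. AAAC (this strand only) occurred in the first 100 exon bases of 48.6% of the 216 members and of 50.6% of all genes with that many exon bases, so its presence there was common; CR45758 had 3, CR31044 and CR46006 1 each, and the other 4 none. Over its whole 739 exon bases CR45758 had 11, or 14.9 per kb. A match is a description of the letters and not a mapped m6A site.
CR45758, 3L:22960930-22961029, plus strand: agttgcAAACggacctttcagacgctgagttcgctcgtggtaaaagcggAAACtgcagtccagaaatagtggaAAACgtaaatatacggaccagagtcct
CR31044, 3R:29214562-29214661, plus strand: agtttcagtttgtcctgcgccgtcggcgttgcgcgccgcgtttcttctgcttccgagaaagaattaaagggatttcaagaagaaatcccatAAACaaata
CR46006, 3L:10323501-10323600, plus strand: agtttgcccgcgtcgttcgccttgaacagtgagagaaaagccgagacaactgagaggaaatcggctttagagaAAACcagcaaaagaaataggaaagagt
CR46348, 3L:22571934-22572033, minus strand: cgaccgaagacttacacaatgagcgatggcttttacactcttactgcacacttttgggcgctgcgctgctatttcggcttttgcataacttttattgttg

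In input RNA, the comparison of neuroblast-biased with wildtype brains called 7 of 175 members higher and 8 lower. Of all 9423 genes 5.28% were called higher and 8.09% lower (13.4% in either direction). Higher were CR40469, CR31386, CR43334, CR44024, CR33938, CR45387 and CR45388, and lower were CR45347, CR46006, CR46004, CR45223, mimi, CR42862, Hsromega and noe. DESeq2 called 13 members higher and 23 lower (21.3% of members tested and 27.5% of genes), and without a filter 9 were higher and 18 lower (12.6% of each). The counts also depended on the library: without neuroblast-biased input replicate 1, 9 were higher and 7 lower, and without wildtype input replicate 2, 3 higher and 6 lower. The genes with the largest changes follow.

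CR43334 (3L:628435-643900, plus strand), host of bantam, a miRNA that promotes growth and blocks cell death, was at 59.6 and 65.0 in Mettl3 null, 229.7 and 257 in neuroblast-biased and 61.4 and 47.2 CPM in wildtype brains in input. All 4 libraries of the other genotypes lay below both neuroblast-biased ones. The log2FC was 2.29 against wildtype (SE 0.25, adjusted p = 3.03e-05). In meRIP it was at 58.1 and 64.1 in Mettl3 null, 465 and 682 in neuroblast-biased and 117 and 151 CPM in wildtype brains. The log2FC was 2.09 in neuroblast-biased against wildtype (adjusted p = 3.83e-08). CR45388, host of mir-315, an activator of Wingless signalling, was at 468 and 481 CPM in neuroblast-biased and 274 and 236 CPM in wildtype input (log2FC 0.97, SE 0.14, adjusted p = 3.09e-04), a call lost without wildtype input replicate 2 (adjusted p = 0.0637).

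CR31386 (3R:11269415-11305608, minus strand) lies 13291 bases from cherub. Input of neuroblast-biased brains held it at 152 and 197 CPM and that of wildtype brains at 6.14 and 0.616 CPM. The log2FC was 6.80 (SE 1.53, adjusted p = 0.0081). In meRIP it was at 253 and 301 CPM in neuroblast-biased and 7.11 and 6.24 CPM in wildtype brains. The log2FC was 5.36 (SE 0.31, adjusted p = 9.44e-13). The groups lay far apart in both kinds of library, but the input call was lost without wildtype input replicate 1 (adjusted p = 0.156) or 2 (adjusted p = 0.283). CR40469 was at 3.67 and 4.06 in Mettl3 null, 933 and 899 in neuroblast-biased and 4.22 and 6.24 CPM in wildtype brains in input (log2FC 7.39, SE 0.88, adjusted p = 5.6e-05 against wildtype; adjusted p = 0.0581 without wildtype input replicate 2). Its 214-base exon is entirely repeated elsewhere in the genome, so this value belongs to the sequence and not with certainty to the locus. CR33938 was at 1616 and 2029 CPM in neuroblast-biased and 568 and 629 CPM in wildtype input (log2FC 1.64, SE 0.14, adjusted p = 2.39e-06) and was called in every alternative fit tried.

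Lower in neuroblast-biased input were both mir-276 hosts: CR46006, with the values given above (log2FC -1.95, SE 0.17, adjusted p = 5.41e-06), and CR46004, at 39.7 and 51.7 CPM in neuroblast-biased and 205 and 167 CPM in wildtype input (log2FC -1.91, SE 0.36, adjusted p = 0.00254; adjusted p = 0.0583 without neuroblast-biased input replicate 2). CR45347, host of mir-4973, had no input count in either neuroblast-biased library and was at 7.68 and 11.0 CPM in wildtype, which with a floor of 3 counts per library is at least 27.8-fold lower in neuroblast-biased input. In meRIP it was at 6.62 and 9.48 CPM in neuroblast-biased and 45.6 and 47.3 CPM in wildtype. The log2FC was -2.55 (adjusted p = 1.04e-08). The input call of CR45347 (adjusted p = 0.0392) was lost without either neuroblast-biased (adjusted p = 0.204 and 0.227) or either wildtype input library (adjusted p = 0.0823 and 0.285).

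Hsromega (3R:21296127-21317836, plus strand), the heat shock RNA of omega speckles, was at 1996 and 1989.6 in Mettl3 null, 877 and 1006 in neuroblast-biased and 1965 and 1941 CPM in wildtype brains in input. The log2FC was -0.998 in neuroblast-biased against wildtype (SE 0.08, adjusted p = 3.05e-06). The Mettl3 null and wildtype libraries lay together, above both neuroblast-biased ones. Its meRIP call (log2FC -0.90, adjusted p = 0.00846) was lost without neuroblast-biased meRIP replicate 1 (adjusted p = 0.159) or wildtype meRIP replicate 2 (adjusted p = 0.181). mimi was at 103 and 122 CPM in neuroblast-biased and 363 and 373 CPM in wildtype input. The log2FC was -1.67 (SE 0.18, adjusted p = 2.91e-05). noe was lower as well. The log2FC was -0.58 (SE 0.07, adjusted p = 6.98e-05). Neuronal markers fell in the same libraries, and their part in these differences was not tested.

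**Figure D3:**
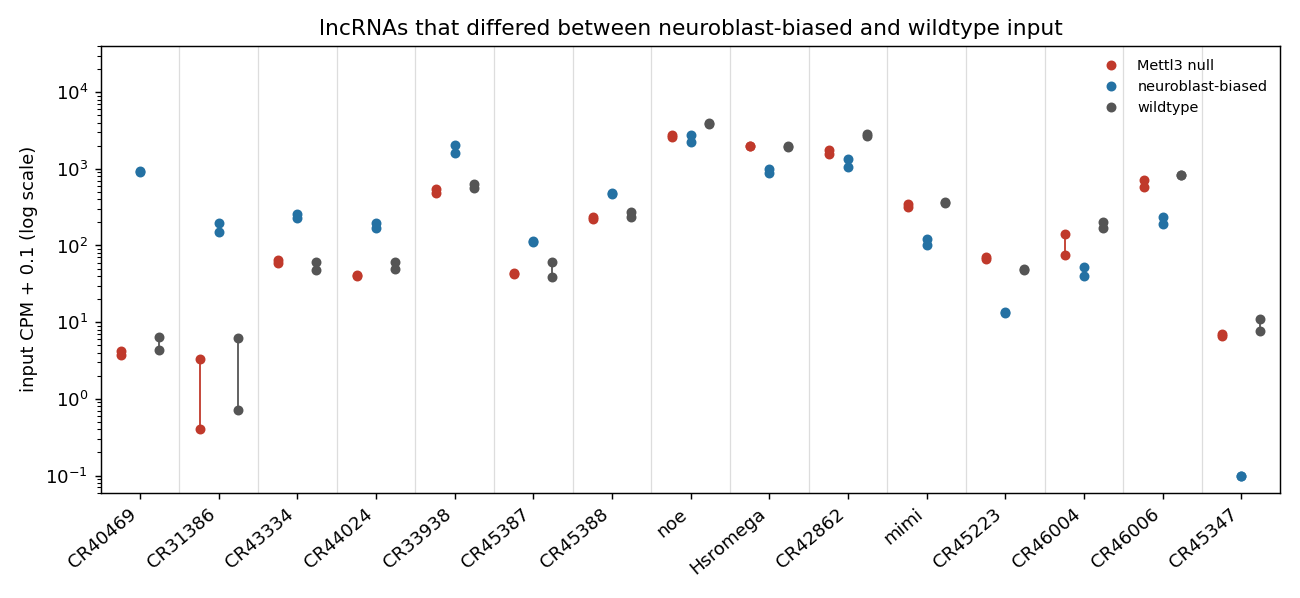
Input CPM + 0.1 (log axis) of the 15 lncRNA genes called between neuroblast-biased and wildtype input, ordered by log2FC from the most positive on the left; points are libraries, Mettl3 null red, neuroblast-biased blue, wildtype grey. The blue points of the first 7 genes lie above the grey ones and those of the other 8 below, with CR45347 at 0 CPM in both neuroblast-biased libraries.

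In meRIP, the same comparison called 83 members lower and 31 higher. Of all genes 23.8% were lower and 19.7% higher (43.5% in either direction). The median log2FC was -0.82 over the members and 0.01 over all genes. Of the 126 that reached 20 counts in each genotype, 50 were lower and 18 higher, with a median of -0.66. Library size alone gave 75 lower and 31 higher, and without neuroblast-biased meRIP replicate 1 there were 48 lower and 35 higher. Among miRNA hosts 10 were lower and 8 higher.

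Of the 55 members in a same-strand intron of a protein-coding gene, 25 were lower and none higher by limma-voom (2 higher at an unadjusted p under 0.05; edgeR called 0 and DESeq2 0 higher), with a median of -1.01. Outside protein-coding genes 46 of 110 were lower and 25 higher (median -0.94). Of the 35 sharing exon bases 9 were lower and 4 higher (median -0.07). In Mettl3 null against neuroblast-biased meRIP, 19 of the same 55 were higher and 1 was lower, beside 18.2% and 20.6% of all genes. The difference between places was not tested. Counts of an intronic lncRNA on the strand of its host gene cannot be told apart from unspliced host RNA. The log2FC of the 55 was set against that of an overlapping protein-coding gene, taken on either strand and so not always the host. They correlated at Pearson r = 0.52 and Spearman rho = 0.57 across genes, which share libraries and sometimes reads. Members outside protein-coding genes correlated with the nearest protein-coding gene as well, at r = 0.41 and rho = 0.41 over 81 pairs. For the 55, r was 0.53 in Mettl3 null against neuroblast-biased meRIP and -0.05 in Mettl3 null against wildtype meRIP, and 0.19 in neuroblast-biased against wildtype input over 49 pairs. Of the 25 called in neuroblast-biased against wildtype meRIP, 22 had an overlapping gene, taken in this way, that was also called, 20 in the same direction. Outside protein-coding genes, 29 of the 50 called members in the 81 pairs had a neighbour that was also called, 25 of them in the same direction.

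CR46009 lies in an intron of pros, the gene of a transcription factor that switches neural progenitors to differentiation. It was at 3.95 and 6.29 CPM in neuroblast-biased and 23.5 and 21.5 CPM in wildtype meRIP. The log2FC was -2.19 (SE 0.31, adjusted p = 2.05e-06). Its input was at 37.8 and 15.8 CPM in neuroblast-biased and 23.8 and 21.3 CPM in wildtype brains, with overlap. CR45941, in an intron of the Wnt receptor gene fz2, was at 9.29 and 9.23 CPM in neuroblast-biased and 29.0 and 29.2 CPM in wildtype brains in meRIP. The log2FC was -1.64 (adjusted p = 1.61e-05). CR44070, in the metalloprotease gene Mmp2, was at 5.61 and 6.19 CPM in neuroblast-biased and 18.9 and 25.5 CPM in wildtype brains. The log2FC was -1.87 (adjusted p = 1.2e-05). These 3 were chosen after their values were seen, for their host genes. Outside protein-coding genes, CR45333 was at 0.0387 and 2.6 CPM in neuroblast-biased and 13.3 and 10.4 CPM in wildtype meRIP. The log2FC was -5.12 (SE 0.93, adjusted p = 5.92e-05). Its log2FC ran between -7.65 and -2.19 over the alternatives, and DESeq2 did not call it (adjusted p = 0.104). CR44597 was at 0 and 0.344 CPM in neuroblast-biased and 1.48 and 3.98 CPM in wildtype meRIP. CR46032, in an intron of bbg, had 0 and 8 counts in neuroblast-biased and 36 and 18 counts in wildtype meRIP. Neither CR44597 nor CR46032 reached 20 counts in neuroblast-biased brains, and they are given without a test.

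**Figure D4:**
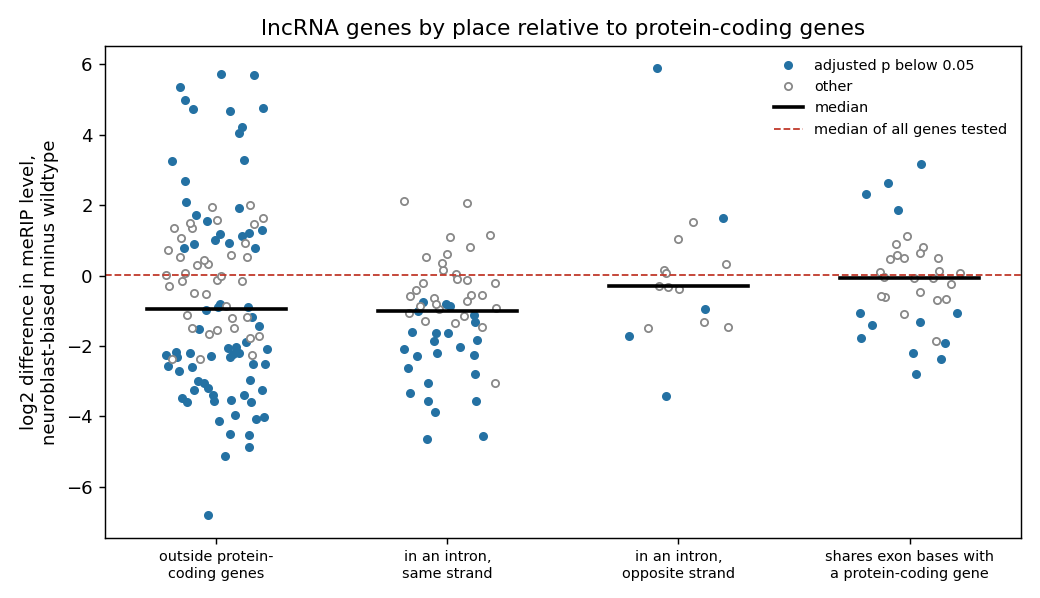
log2 difference in meRIP level, neuroblast-biased minus wildtype, of the 216 lncRNA genes by their place relative to protein-coding genes; filled points have an adjusted p below 0.05, black bars are the medians of each place (-0.94, -1.01, -0.30 and -0.07 from left to right) and the dashed line is the median of all genes tested (0.01). No filled point lies above 0 among the 55 genes in a same-strand intron.

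The meRIP to input ratio of neuroblast-biased against wildtype brains was called for none of 213 members and 0.0% of 9918 genes by limma-voom (20 members and 6.8% of genes had an unadjusted p under 0.05). edgeR called no member and 2 genes, and DESeq2 3 members (CR44831, CR44978 and CR45347, the last with neuroblast-biased input at 0) and 40 genes. With 2 libraries a group this says only that no difference was detectable. CR31044 and CR43857 illustrate the precision: their ratio differences were 0.26 (SE 0.52) and 0.12 (SE 0.41) on the log2 scale, although the meRIP level of CR31044 was higher (log2FC 1.28, adjusted p = 9.12e-05) and that of CR43857 lower (log2FC -0.89, adjusted p = 0.00268, lost without wildtype meRIP replicate 1 at adjusted p = 0.07) in neuroblast-biased brains.

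In input RNA of Mettl3 null against wildtype brains, 3 of 175 members were lower and none higher, beside 0.138% lower and 0.117% higher of 9423 genes (0.255% in either direction; 13 members and 6.31% of all genes at an unadjusted p under 0.05). The 3 were among the most counted: CR42862, at 1546 and 1753 CPM in Mettl3 null and 2813 and 2638 CPM in wildtype input (log2FC -0.73, SE 0.08, adjusted p = 3.46e-04), noe (log2FC -0.57, SE 0.06, adjusted p = 4.3e-04) and CR34335, at 1210.3 and 1318 CPM in Mettl3 null and 1838 and 2197 CPM in wildtype input. The log2FC was -0.74 (SE 0.10, adjusted p = 0.00424). Their groups did not overlap, yet edgeR called none of them (adjusted p between 0.204 and 0.341), and CR34335 also lost its call without either Mettl3 null input library (adjusted p = 0.161 and 0.125) or wildtype input replicate 2 (adjusted p = 0.21). No miRNA host was called, in a comparison that called 24 of all genes. Of the 21 hosts 14 had a negative log2FC, with a median of -0.19. CR46004 was at 140 and 75.6 CPM in Mettl3 null and 205 and 167 CPM in wildtype input (log2FC -0.83, adjusted p = 0.519), and CR46006 had a log2FC of -0.38 (adjusted p = 0.523). Neither was called. These were the 2 of 21 hosts with an unadjusted p under 0.05 by limma-voom (0.00656 for CR46004 and 0.00666 for CR46006), beside 6.31% of all genes. In meRIP, noe was lower in Mettl3 null than in wildtype (log2FC -1.04, adjusted p = 0.0137), a call lost without either Mettl3 null meRIP library (adjusted p = 0.0597 and 0.137) or wildtype meRIP replicate 2 (adjusted p = 0.329).

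Some members were near 0 in whole genotypes. The rule itself lets such genes in, since 32 of the 216 reached 20 counts in meRIP libraries of a single genotype (4 in Mettl3 null, 19 in neuroblast-biased, 9 in wildtype), and they are described without a test. TS9 was at 2.53 and 4.28 in Mettl3 null, 0 and 0 in neuroblast-biased and 0 and 0.452 CPM in wildtype brains in meRIP. In input TS9 was at 3.22 and 5.56 in Mettl3 null, 0 and 0.184 in neuroblast-biased and 0 and 0 CPM in wildtype brains. With a floor of 3 counts per library it was at least 25.8-fold higher in Mettl3 null than in neuroblast-biased meRIP and at least 10.4-fold higher in Mettl3 null than in wildtype input. Its neighbour CR46206, 5288 bases away on chromosome arm 2L, was also highest in Mettl3 null, at 3.999 and 3.52 in Mettl3 null, 0 and 0.0491 in neuroblast-biased and 0.134 and 0 CPM in wildtype brains in meRIP. Its input was at 3.96 and 4.43 in Mettl3 null, 0 and 0 in neuroblast-biased and 0 and 0 CPM in wildtype brains. CR45666, high in wildtype, was at 0.0588 and 0 in Mettl3 null, 0.271 and 0.295 in neuroblast-biased and 3.29 and 3.44 CPM in wildtype brains in meRIP. CR44949, high in neuroblast-biased, was at 0.0588 and 0 in Mettl3 null, 6.19 and 4.81 in neuroblast-biased and 0.268 and 0.0905 CPM in wildtype brains.

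Other members reached 20 counts in 2 genotypes and lay near 0 in the other. They entered through the genotypes where they were high, so no test against the low genotype is given. CR46123, in an intron of Myo81F on the opposite strand, had no count in either wildtype meRIP library, against 3.88 and 4.78 CPM in Mettl3 null and 2.05 and 2.55 CPM in neuroblast-biased meRIP, at least 18.3-fold and 9.74-fold higher than wildtype. CR43818 was at 7.17 and 6.5 in Mettl3 null, 0.0387 and 0.147 in neuroblast-biased and 1.14 and 2.26 CPM in wildtype brains. In input it reached 4.64 and 8.79 CPM in Mettl3 null only, against 0 and 0 CPM in neuroblast-biased and 0 and 0.967 CPM in wildtype brains. CR45517, conversely, was at 0.47 and 0 in Mettl3 null, 11.8 and 19.7 in neuroblast-biased and 1.88 and 1.18 CPM in wildtype brains. CR45232, an unspliced transcript beside Atg9, was at 0.294 and 0.503 in Mettl3 null, 0.89 and 1.42 in neuroblast-biased and 7.04 and 17.9 CPM in wildtype brains.

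**Figure D5:**
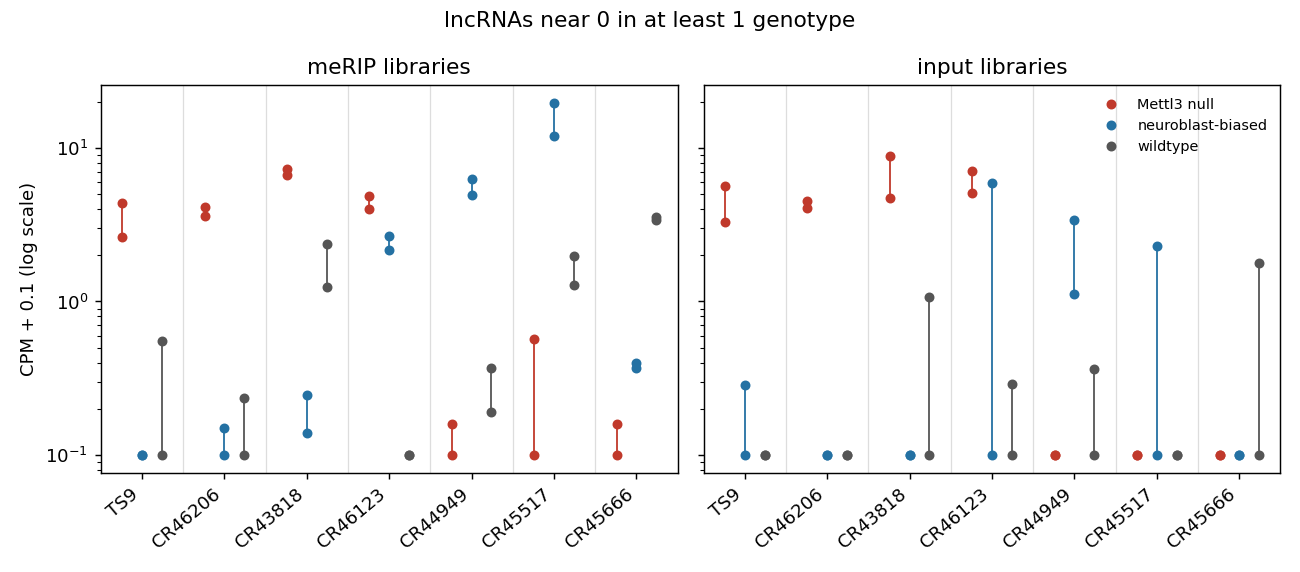
CPM + 0.1 (log axis) of 7 lncRNA genes that were at or near 0 in at least 1 genotype, in meRIP (left) and input libraries (right); points are libraries, Mettl3 null red, neuroblast-biased blue, wildtype grey, and 0 CPM is drawn at 0.1. TS9 and CR46206 have points well above 0.1 in both kinds of library in Mettl3 null brains, and CR44949 and CR45517 in neuroblast-biased meRIP. In input CR45517 had a mean of 1.11 CPM in neuroblast-biased brains but overlapped wildtype, which was at 0.

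Among the other lncRNAs with a name, acal, which lies near lola and acts in embryonic dorsal closure, was at 1.999 and 2.64 in Mettl3 null, 0.658 and 4.67 in neuroblast-biased and 1.27 and 2.26 CPM in wildtype brains in meRIP. No pair of its genotypes was called. The alphagamma-element gene CR32865, part of the heat shock repeats beside Hsp70Ba, was at 0.706 and 3.4 in Mettl3 null, 0.348 and 2.41 in neuroblast-biased and 0.671 and 0.995 CPM in wildtype brains. All its genotypes overlapped, and copies cover 92.3% of its exons. flam, the piRNA cluster that silences transposons in the soma of the ovary, was at 0.412 and 0.503 in Mettl3 null, 0.542 and 1.38 in neuroblast-biased and 2.68 and 5.34 CPM in wildtype brains in meRIP. It did not reach 20 counts in Mettl3 null meRIP and is given without a test. sphinx, a gene of male courtship, reached 20 counts only in neuroblast-biased meRIP, at 0 and 0.377 in Mettl3 null, 2.4 and 5.06 in neuroblast-biased and 0.403 and 0.271 CPM in wildtype brains. Its input was at 1.05 and 4.43 in Mettl3 null, 0 and 0 in neuroblast-biased and 0 and 0 CPM in wildtype brains. mimi was at 393 and 483 in Mettl3 null, 141 and 176 in neuroblast-biased and 514 and 999 CPM in wildtype brains in meRIP. The log2FC was 1.41 in Mettl3 null against neuroblast-biased (adjusted p = 6.28e-05) and -2.19 in neuroblast-biased against wildtype (adjusted p = 9.55e-08).

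In the ratio comparisons the members called higher had little input: CR46265, in an intron of the acetylcholine synthesis gene ChAT, had 0 and 0 CPM in Mettl3 null input and 2.69 and 3.52 CPM in wildtype input. CR44042 had 2.09 and 0 CPM in Mettl3 null and 11.2 and 3.96 CPM in neuroblast-biased input, with meRIP at 4.06 and 6.04 CPM in Mettl3 null and 0.387 and 0.884 CPM in neuroblast-biased brains. The fitted ratio of CR46265 depends on the prior count and is not given. CR44042 did not reach 20 counts in neuroblast-biased meRIP, and its ratio call was lost with edgeR, with the replicate block and without any of 10 single libraries. CR44320, CR45347 and sphinx were called lower in Mettl3 null against neuroblast-biased brains with both neuroblast-biased input libraries at 0. Of the members named by the ratio rule, CR44997 was at 8.76 and 13.2 in Mettl3 null, 16.0 and 31.2 in neuroblast-biased and 119 and 93.0 CPM in wildtype brains in meRIP. Its input was at 10.5 and 6.76 in Mettl3 null, 0 and 2.77 in neuroblast-biased and 12.1 and 7.65 CPM in wildtype brains. The log2FC was -3.38 against wildtype (adjusted p = 0.0482). This ratio call was lost with edgeR (adjusted p = 0.138), with library size alone (adjusted p = 0.0732), without a filter (adjusted p = 0.0974) and without any single Mettl3 null or wildtype library (adjusted p up to 0.415).

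At the limit of the rule itself, CR44833, CR45736 and CR46039 entered with a second-highest meRIP count of 20, and CR44066, CR44886, CR44932 and CR45973 stayed out with 19. Most members cleared it easily: 85 had 20 counts or more in all 6 meRIP libraries, 25 in 5, 28 in 4, 23 in 3 and 55 in 2.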

How the data were processed

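RNA of brain lobes from 3 genotypes was sequenced as meRIP and as input, 12 libraries in 6 groups of 2. The authors deposited 1 table of raw counts per gene; reads had been trimmed with Trimmomatic and assigned to the BDGP6 annotation, per the study's methods by STAR and featureCounts for meRIP and by kallisto for input. How kallisto's estimates became the whole numbers per gene of the deposited input columns, the strand setting and the treatment of duplicates are not given in the sources used here. PCR duplicates without molecular identifiers are not independent molecules. Total counts ran between 4220420 and 31352131 a library. Replicates were separate biological samples per the study's methods.

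Symbols, positions and exons came from Ensembl release 115 (BDGP6.54). Counts were fitted with limma-voom (limma 3.58.1, R 4.3.3) after filterByExpr (minimum count 10) and TMM scaling (edgeR 4.0.16), separately for the 6 input and the 6 meRIP libraries, and over all 12 for the meRIP to input ratio (an interaction contrast). Tests were two-sided, with Benjamini-Hochberg adjustment over all genes tested and a threshold of 0.05. CPM were scaled with TMM factors over all 12 libraries. Copies were sought with BLAST+ 2.17.0. The fits were tested on simulated data. Alternatives were the edgeR quasi-likelihood test, DESeq2 1.42.0, RLE scaling, library size alone, no filter, a replicate block (for the ratio, genotype and replicate number together, since the study divided RNA between input and meRIP) and leaving out each library.

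Named genes were all members with a name, the 5 with the highest mean meRIP CPM, the 3 largest rises and falls per comparison among called members with mean CPM of at least 1 whose groups did not overlap, and those next to the count limit; miRNA hosts were added. The members and lists were chosen with earlier results of these data known. No p is given in meRIP or ratio comparisons for members that did not reach 20 counts in a meRIP library of each genotype compared.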

Additional observations from a re-analysis of the deposited data

How the results depend on the processing

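The numbers of members called depended on the tool where input was used. DESeq2 called 36 members in neuroblast-biased against wildtype input and fitting without a filter 27, against 15 by limma-voom; edgeR called 0 of the 3 in Mettl3 null against wildtype input. For the meRIP to input ratio, DESeq2 called 23 members in Mettl3 null against wildtype and 32 against neuroblast-biased brains, and no filter gave 19 in the second comparison, against 12 each by limma-voom. In neuroblast-biased against wildtype ratios DESeq2 called 3 and no filter 1, against 0. The cause was not tested. Leaving out each library in turn gave 9 to 17 calls in neuroblast-biased against wildtype input, 2 to 3 in Mettl3 null against wildtype input, 39 to 74, 59 to 97 and 82 to 114 in meRIP (Mettl3 null against wildtype, Mettl3 null against neuroblast-biased, neuroblast-biased against wildtype), and 0 to 15, 1 to 22 and 0 to 0 for the ratios in the same order. Of 114 named pairs of a member and a comparison, 60 were called under every alternative and 0 reversed. The 114 pairs had been chosen because the main fit called them, so the absence of reversals says little. They include pairs described above without a test, such as TS9 and sphinx in meRIP. Input limits the ratios, with 34 to 123 members at 0 in a library. These zeros did not follow total counts: neuroblast-biased input replicate 1 had 123 with 6005731 counts, and wildtype input replicate 1 had 54 with 4220420.

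Same-numbered libraries did not deviate together (correlations of their deviations between -0.04 and 0.09 across 9918 genes; input and meRIP of 1 genotype between -0.001 and 0.078, although their RNA was divided). The labels do not tie an input library to a meRIP library, so the numbers were not taken to pair them. With the replicate block, 19 members were called for the ratio of Mettl3 null against neuroblast-biased brains, 17 of them lower, against 12 without, and 13, all lower, against wildtype; in meRIP the block gave 71 calls in Mettl3 null against wildtype, 107 against neuroblast-biased and 116 in neuroblast-biased against wildtype brains.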
